A study of Mus musculus with 33 samples.

Results

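Kidneys collected at week 2 after delivery of interferon alpha were compared with kidneys of untreated mice. All animals were of the lupus-prone strain NZB X NZW F1 (BWF1). The treated mice had received Adv-IFNα, an adenovirus vector that carries a mouse IFNα gene, by intravenous injection, and per the study's methods the mice were female and the controls matched for age. The comparison held 8 arrays of the 33 in the series, 5 labelled week 2 and 3 labelled untreated, with 1 mouse per array. Weeks 1 and 3, with 5 arrays each, were used to place the week 2 levels in time. No age is given in the labels, and the single untreated group carries no week, so a match in age to week 2 is not shown. Age and treatment therefore cannot be told apart here. No mice given a vector without the IFNα gene were analysed, so IFNα and the adenovirus cannot be told apart in this comparison either. The kidneys were profiled whole, so for any transcript below, fewer cells of a type and less RNA per cell cannot be told apart.

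Type I interferons, the family to which IFNα belongs, bind a receptor made of Ifnar1 and Ifnar2 on almost every cell. The attached kinases Jak1 and Tyk2 then phosphorylate STAT proteins, among them Stat2, which joins Irf9 in a complex that binds a DNA element called the interferon-stimulated response element (ISRE) in front of antiviral genes. In lupus nephritis, kidney inflammation driven by deposited antibodies, transcripts of these genes are a well-known feature of blood and kidney, and giving IFNα hastens kidney disease in BWF1 mice.

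Of 45037 probe sets tested, 167 rose more than 2-fold at week 2 with an adjusted p under 0.05 (limma, Benjamini-Hochberg), which is 0.371% of those tested, and 8 fell (0.0178%). With the brightest probe set standing for each of 17097 genes, 102 genes rose past that limit (0.597%) and 4 fell (0.0234%). Without a limit on the fold, 217 genes rose (1.27%) and 68 fell (0.398%). The median log2 change over all 17097 genes was -0.02. All 5 week 2 arrays lay above all 3 untreated arrays for 101 of the 102 genes, against 5.15% of all genes, and below them for 2 of the 4 that fell, against 5.27% of all genes. The called genes were picked on the same arrays, so their separation describes the call and is no separate support. Below, a gene is said to have risen or fallen where its adjusted p was under 0.05, whatever the fold.

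**Figure D1:**
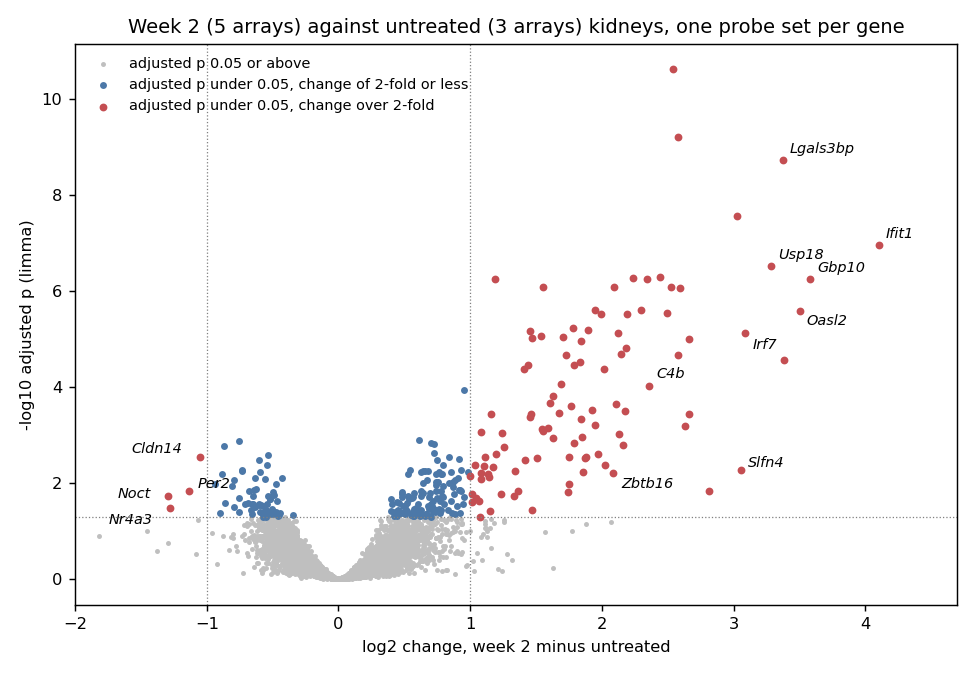
Change and test of 17097 genes. The horizontal axis is the log2 change (week 2 minus untreated) and the vertical axis the -log10 adjusted p from limma, with dotted lines at 2-fold and at an adjusted p of 0.05. The 102 red points on the right outnumber the 4 on the left, and Ifit1 lies farthest to the right at 4.10.

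Some arrays stood apart. Week 2 replicate 4 carried transcripts of the adrenal gland, which lies beside the kidney. Cyp11b1, the enzyme for the last step of corticosterone synthesis, had a log2 level of 7.11 on that array against 1.16 to 1.34 on the other week 2 arrays. Star, which brings cholesterol into mitochondria for steroid synthesis, had 8.77 against 4.66 to 5.47, and Chgb, a granule protein of adrenal chromaffin cells, had 9.46 against 3.26 to 3.76. The same genes were high on week 1 replicate 4 (Cyp11b1 7.32, Star 9.04, Chgb 9.75) and less so on week 1 replicate 1 (3.99, 5.83 and 6.45), while on the remaining 30 arrays of the series Cyp11b1 lay between 1.05 and 1.61. Over all probe sets, week 1 replicate 4 and week 2 replicate 4 correlated at 0.989, at the low end of the range among week 2 arrays (0.989 to 0.994). Such a value cannot show whether arrays of different weeks share tissue, and they were kept as separate mice, as labelled. Without week 2 replicate 4, 160 probe sets rose and 7 fell past 2-fold.

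**Figure D2:**
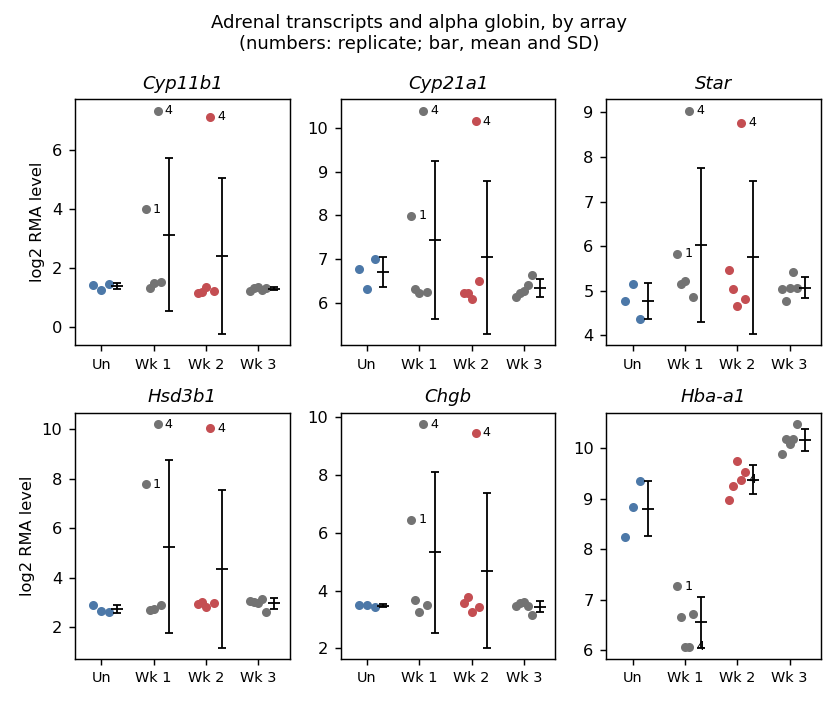
Log2 RMA levels of 5 adrenal transcripts and of the alpha globin gene Hba-a1 in untreated, week 1, week 2 and week 3 kidneys (points, single arrays, with replicate numbers beside those singled out in the text; bars, group mean and SD). Week 2 replicate 4 and week 1 replicate 4 stand above the other arrays of their groups for the adrenal genes, with Cyp11b1 at 7.11 and 7.32.

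The untreated arrays also differed among themselves in their interferon transcripts. Mx1, a GTPase that blocks influenza virus, had 6.16, 4.78 and 3.37 in untreated replicates 1, 2 and 3, a spread (SD 1.40) far wider than at week 2 (7.02 to 7.96, SD 0.37). Correlations among the 3 untreated arrays ran from 0.984 to 0.986. The log2 difference between the 3′ and 5′ beta-actin control probe sets, a measure of RNA integrity and labelling, was 1.57 ± 0.158 (SD, n = 3) in untreated and 1.93 ± 0.0897 (n = 5) at week 2, with no overlap (exact two-sided permutation test, p = 0.0357, the smallest that 5 against 3 arrays can give, and 0.107 after Benjamini-Hochberg adjustment over 3 such measures). With that ratio as a covariate 136 probe sets rose and 4 fell, and its part in the results below was not tested beyond that fit.

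The 20 genes with the largest rises were, in order, Ifit1, Gbp10, Oasl2, Oas3, Lgals3bp, Usp18, Irf7, Slfn4, Rtp4, Mx1, Xaf1, Tgtp1, Irgm1, Ifi27, Oasl1, H2-T24, Oas1g, Ifit3, C4b and Ifi213, and their changes ran from 4.10 down to 2.34 on the log2 scale. They were taken from named genes with no overlap between the groups. Where a changed gene had further probe sets, as 34 of the 79 named genes that passed did, none of those passed for 24, and none passed in the opposite direction for any.

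**Figure D3:**
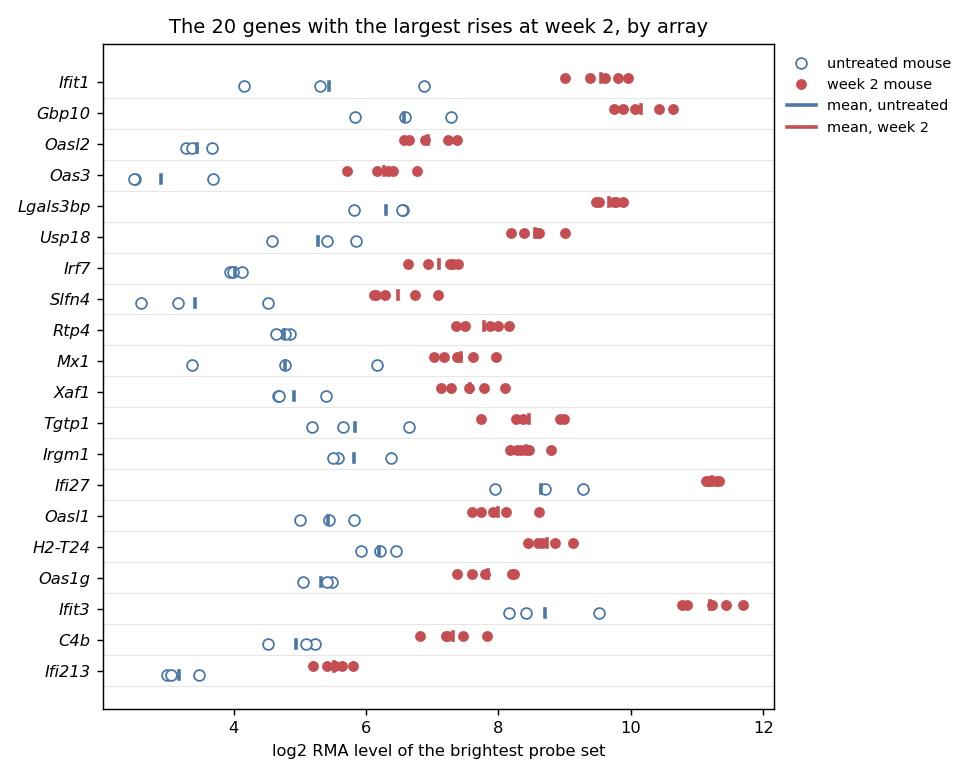
Log2 RMA level of the brightest probe set of the 20 genes with the largest rises, by array (open circles, untreated; filled circles, week 2; ticks, group means). No week 2 array overlaps an untreated array, and the untreated arrays of Ifit1 spread from 4.15 to 6.87 while those of Irf7 lie between 3.95 and 4.13. Levels of different probe sets are not comparable with each other.

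The promoters of these genes were searched for the ISRE, because it is the element that the Stat2 and Irf9 complex binds. RefSeq promoter windows (GRCm38.p6), each 300 bases from 250 before to 50 after a gene's start site, were searched on both strands for the ISRE core, which is GAAA, any 2 bases and GAAA again (TTTC on either side of the 2 bases when read on the other strand). Of the 102 genes that rose more than 2-fold, 73 had a window, and 30 of those (41.1%) held the core, against 3.59% of the 13605 measured genes with a window and 3.44% of all 32851 windows. Among the 56 genes with a window that fell by any fold, 1 held it (1.79%). Of the 20 largest rises, 13 had a window and 7 of those held the core (53.8%). The core was also present in 8 of 10 interferon ligand genes with a window (80.0%), and no measured ligand gene rose. The following stretches, printed 5′ to 3′ on the gene's strand with the core in capitals, are those of 7 strongly raised genes.
Ifit1, chr19:34640779-34640838 (+): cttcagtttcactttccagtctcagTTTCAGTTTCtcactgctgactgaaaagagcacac
Ifit3, chr19:34583382-34583441 (+): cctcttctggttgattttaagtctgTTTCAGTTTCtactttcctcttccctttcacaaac
Oas3, chr5:120777700-120777759 (-): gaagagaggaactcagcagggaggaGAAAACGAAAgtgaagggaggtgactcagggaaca
Irgm1, chr11:48871421-48871469 (-): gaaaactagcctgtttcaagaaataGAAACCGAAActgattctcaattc
Tgtp1, chr11:48992289-48992348 (-): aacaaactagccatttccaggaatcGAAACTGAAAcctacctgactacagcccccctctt
Irgm2, chr11:58214888-58214947 (+): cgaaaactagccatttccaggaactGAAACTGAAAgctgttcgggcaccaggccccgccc
Gbp3, chr3:142559974-142560033 (+): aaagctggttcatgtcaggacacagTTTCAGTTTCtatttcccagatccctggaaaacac
Further cores in the printed stretches of Ifit1 (upstream), Irgm1 and Gbp3 (both overlapping the one in capitals) are left in lower case here. The core GAS (TTCNNNGAA), a further element of interferon-responsive promoters, was present in 19.2% of the raised genes with a window against 8.76% of measured genes, and the E-box CACGTG, bound by clock factors among others, in 1.37% against 10.2%. Tgtp1 and Irgm2 hold a GAS core just upstream of the ISRE core. A match describes letters in the window and is not a bound site.

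Interferon ligands and receptors in the kidney did not pass the test. Of 11 measured ligand genes none rose or fell, with changes from -0.24 to 0.34 on the log2 scale. Ifna1 was 4.43 ± 0.836 (SD, n = 3) in untreated and 4.77 ± 0.175 (n = 5) at week 2, a difference of 0.34 (95% confidence interval -0.04 to 0.71), and Ifnb1 differed by -0.00 (-0.38 to 0.37). The interval of Ifna1 rests on the SD pooled over all groups and does not measure its wider untreated SD. The Ifna genes are near-identical copies, so single members are uncertain. None of the 9 receptor subunits and kinases passed: Ifnar1 differed by -0.06 (-0.33 to 0.22), while Ifnar2 differed by 0.56 (0.13 to 0.99, adjusted p = 0.18).

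Among the transcription factors below the receptor, 3 of 11 rose and none fell (median change 0.27). Irf7, the amplifier of IFNα transcription, was 3.95, 4.13 and 3.98 in the untreated arrays and 6.94, 7.27, 7.32, 6.63 and 7.39 at week 2. The lowest week 2 array thus lay well above the highest untreated one, and the rise was 8.52-fold (log2 3.09, SE 0.40, adjusted p = 7.4e-06). Stat2 rose by 2.12 and its partner Irf9 by 1.46. The other 8 did not pass, with Irf3 at 0.03, Irf1 at 0.27 and Stat3 at 0.10.

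The brakes on the pathway were split. Usp18, the protease that strips ISG15 from proteins and blocks Ifnar2, rose 9.72-fold, from 5.84, 5.41 and 4.57 in untreated to 8.19, 8.61, 9.00, 8.38 and 8.60 at week 2. Trim21, an antibody-binding ubiquitin ligase and the lupus autoantigen Ro52, rose by 1.55 and Pias1, an inhibitor of STAT binding, by 0.45. The Pias1 call was lost under 8 of 19 alternatives, and its other probe set differed by 0.06. The cytokine-signalling suppressors did not pass: Socs1 differed by -0.59 (adjusted p = 0.062) and Socs3 by -0.49 (0.53). Of the 7 measured genes listed for the ISG15 conjugation system 4 rose. Among them were the activating enzyme Uba7 (0.78), the ligase Trim25 (0.95) and Herc3 (0.68). Herc6 differed by 1.11 and did not pass (limma, adjusted p = 0.062). The calls of Uba7 and Herc3 ended when a gene's probe sets were averaged (adjusted p = 0.094 and 0.13).

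Antiviral effectors rose in many families. The 16 lists of transcription factors, brakes, antiviral effectors and MHC class I genes hold 158 measured genes. Their median change was 0.68 against -0.02 over all genes. Of the 158 genes, 65 rose (41.1%, against 1.27% of all genes) and none fell (against 0.398%). With the ligand and receptor lists added, where none rose, it was 65 of 178 (36.5%). These 65 included 56 of the 102 genes raised more than 2-fold. The lists were drawn up with these data known, so the shares describe them and test nothing.

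The OAS enzymes make the messenger 2-5A, which switches on RNase L to degrade RNA. Of 11 measured genes of that system 6 rose (median 1.69). Oasl2 had 3.28, 3.38 and 3.67 in untreated arrays and 6.57 to 7.38 at week 2, and Oas3 went from 2.50, 3.69 and 2.49 to between 5.72 and 6.77. Oas1g rose by 2.52 and Oas1b by 1.95.

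Of 10 genes listed as effectors that bind or act on RNA, 7 rose (median 1.60). Ifit1, which holds RNA lacking the host's cap methylation, had 6.87, 5.31 and 4.15 in untreated and 9.00, 9.80, 9.96, 9.38 and 9.60 at week 2, so that the untreated arrays spread more than the treated ones. Ifit3 rose by 2.49, Ifit2 by 1.88, the exonuclease Isg20 by 1.84 and PKR (Eif2ak2), the kinase that halts translation, by 1.75. For Eif2ak2 the adjusted p was 0.067 with the beta-actin covariate and 0.073 without untreated replicate 3. Of 12 further antiviral effectors, some of which act on virus entry or release, 5 rose. These were Mx1 (2.66), Ifitm3 (1.89), Cmpk2 (1.83), viperin (Rsad2, 1.41) and the nucleotide hydrolase Samhd1 (1.17).

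Sensors of RNA rose in 5 of 9 cases. The helicases that detect viral RNA, Dhx58, Ifih1 (MDA5) and Ddx58 (RIG-I), rose by 2.01, 1.79 and 1.47, and Ifih1 had 6.48, 6.04 and 5.43 in untreated arrays against 7.55 to 8.12 at week 2. Tlr3, the endosomal receptor for double-stranded RNA, rose by 0.79 (adjusted p = 0.099 with its probe sets averaged). Zbp1, a sensor of Z-form nucleic acid, rose by 1.36. That call ended when untreated replicate 3 was left out (0.92, adjusted p = 0.20) or when the beta-actin covariate entered the fit (adjusted p = 0.17).

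Of 12 DNA sensors and nucleases 4 rose, and these 4 belong to the Ifi200 cluster of DNA-binding proteins: Ifi204 (2.13), Ifi202b (2.10), Ifi205 (1.61) and Ifi203 (1.08). Ifi202b is a known lupus susceptibility gene of the NZB strain, and the genes of that cluster share sequence, so probe sets may cross-hybridize. Cgas, which senses DNA in the cytosol, differed by 0.00, and Sting1, the adaptor below it, was 3.99 ± 0.258 (n = 3) in untreated and 3.69 ± 0.073 (n = 5) at week 2, a difference of -0.30 (95% confidence interval -0.76 to 0.16). All 5 week 2 arrays lay below the untreated ones for Sting1, as they did for 5.27% of all genes.

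All 6 measured immunity-related GTPases, which attack the vacuoles of intracellular parasites, rose, with a median of 2.18, the highest of the 50 lists. Irgm1 had 6.38, 5.58 and 5.50 in untreated arrays and 8.28, 8.47, 8.80, 8.17 and 8.35 at week 2 (6.03-fold). Tgtp1 (2.63), Irgm2 (2.18), Igtp (2.18) and Iigp1 (2.02) rose as well, and for each of these 4 genes week 2 replicate 4 was the lowest of its group, between 6.75 for Iigp1 and 8.69 for Irgm2. Of 7 guanylate-binding GTPases 3 rose. Gbp10 had 7.28, 6.59 and 5.83 in untreated and 9.74 to 10.6 at week 2, and Gbp3 and Gbp7 rose by 2.29 and 1.73.

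Smaller families followed. Of the PARP and Dtx3l family, enzymes of ADP-ribosylation, 6 of 13 rose, led by Parp9 (1.93), Parp12 (1.70) and Dtx3l (1.63). Of the TRIM ubiquitin ligases 7 of 15 rose, led by Trim30a (2.24). In the Schlafen family 1 of 8 rose: Slfn4, a myeloid member, had 4.51, 3.16 and 2.59 in untreated and 6.12 to 7.09 at week 2. Its call was lost when untreated replicate 3 was left out (adjusted p = 0.072) or the beta-actin covariate was added (0.071). Ly6e, a surface protein, rose by 2.09 as the single riser among 7 Ly6 genes. Of 16 genes listed for cell death and the inflammasome 5 rose, led by Xaf1 (2.66), Phf11a (1.99) and Sp100 (1.78). The death ligand Tnfsf10 rose by 0.86, a call lost under 11 of 19 alternatives. The other 11 did not pass, among them Casp1 (0.07), Casp8 (0.22), Ripk3 (0.26) and Casp4 (1.18, limma, adjusted p = 0.066).

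**Figure D4:**
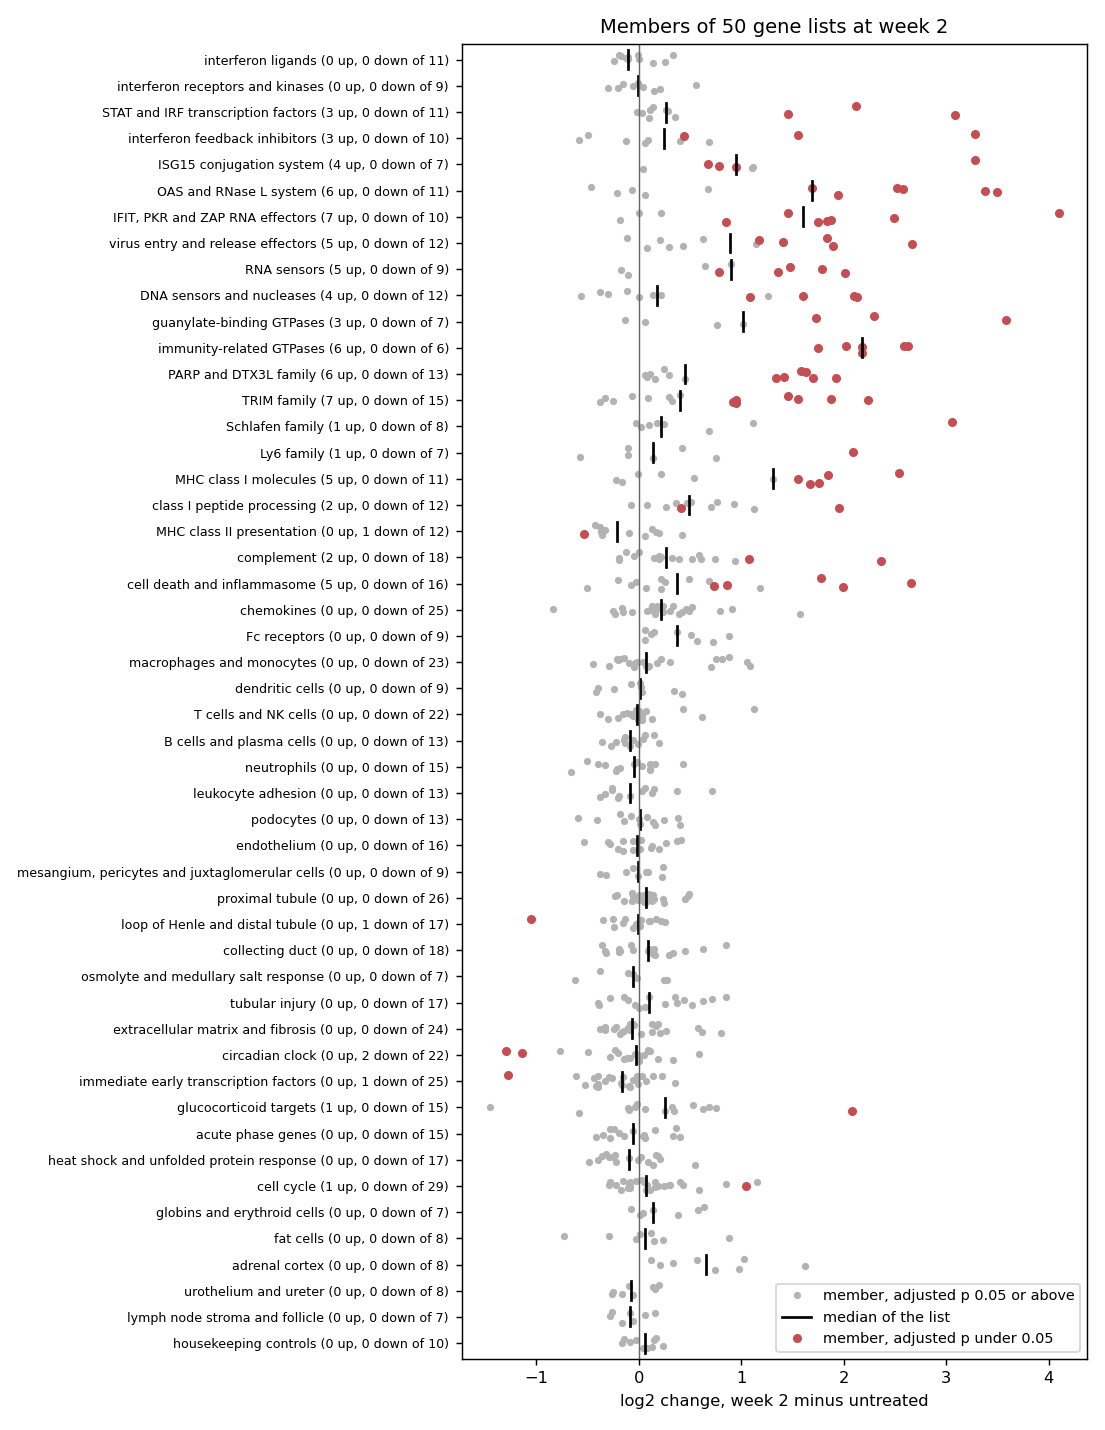
Log2 change (week 2 minus untreated) of every measured member of 50 gene lists (red, adjusted p under 0.05; grey, not; black bar, list median; counts in the labels). Red points lie to the right in the upper, interferon-related lists, and the immunity-related GTPases have the highest median, 2.18. Leukocyte, nephron and injury lists centre near 0.

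Antigen presentation changed on the class I side. Of 11 MHC class I genes 5 rose (median 1.31), among them H2-K1, which was 6.96, 6.42 and 6.47 in untreated and 8.08 to 8.88 at week 2, and the non-classical H2-T24 (2.54), H2-Q4 (1.85), H2-T10 (1.67) and H2-T23 (1.55, adjusted p = 0.098 with the beta-actin covariate). Class I genes are alike in sequence and the strain's alleles may differ from the probes, so a single member is uncertain. Nlrc5, the transactivator of class I genes, rose 3.86-fold, from 6.78, 5.95 and 5.57 to between 7.73 and 8.34. Of 12 peptide-processing genes Nlrc5 and the chaperone Canx (0.41) rose, and the Canx call was lost under 7 of 19 alternatives, among them the replicate block (adjusted p = 0.057). Psmb8 and Psme1 of the immunoproteasome differed by 1.13 and 0.93 (adjusted p = 0.13 and 0.054). None of the 12 MHC class II genes rose, and H2-Oa fell by 0.54, a call lost under 11 of the 18 alternatives run for it.

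Complement showed 2 of 18 rises. C4b, a component of the classical pathway, had 5.22, 5.09 and 4.52 in untreated and 7.20, 7.22, 7.83, 6.82 and 7.47 at week 2 (5.14-fold, adjusted p = 9.2e-05). C1ra, the protease upstream of it, rose by 1.08, at an adjusted p of 0.0497 that no longer passed under 12 of 18 alternatives. C1qa, C1qb and C1qc, mostly of macrophages, differed by 0.39, 0.15 and 0.32 and did not pass.

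Leukocyte transcripts were not detectably changed. Over 5 lists of macrophages, dendritic cells, T and NK cells, B and plasma cells and neutrophils, none of 82 genes passed in either direction, while 15 had an unadjusted p under 0.05 (18.3%, against 15.5% of all genes). The median over them was -0.02. None of the 25 chemokines passed, and the nearest were Ccl28 (1.57, adjusted p = 0.11) and the neutrophil attractant Cxcl2 (-0.84, adjusted p = 0.24). The interferon-inducible Cxcl10 followed (0.91, adjusted p = 0.29, 95% confidence interval 0.08 to 1.74). Ms4a6c, of monocytes, differed by 1.08 (0.34 to 1.82). With the 2 groups fitted alone, 1 macrophage gene and 1 T or NK gene rose, and without untreated replicate 1, 2 chemokines did.

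The nephron lists were also near 0. Of 99 genes of podocytes, endothelium, mesangium, proximal tubule, loop of Henle, distal tubule and collecting duct, none rose and 1 fell (median 0.02). An unadjusted p under 0.05 was reached by 12 of them (12.1%, against 15.5% of all genes). None of 17 tubular injury genes passed, where Havcr1 (KIM-1) differed by 0.35 (-0.57 to 1.28) and Lcn2 by -0.28 (-1.97 to 1.41). None of 24 matrix genes passed either. Tnc differed by 0.62 (-0.09 to 1.33), Col1a2 by -0.32 (-0.68 to 0.03), Acta2 by -0.38 (-0.87 to 0.11) and Timp1 by -0.14 (-1.06 to 0.78). The intervals of Havcr1, Lcn2, Tnc and Timp1 reach past a log2 change of 1 in size, so a 2-fold difference is not excluded for them.

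No member passed among Fc receptors, leukocyte adhesion, osmolyte, acute phase, heat shock and unfolded protein, globin, fat, adrenal cortex, urothelium, lymph node and housekeeping genes. The mean of 8 fat cell genes varied from mouse to mouse, from 5.98 to 7.91 in untreated and from 6.51 to 7.87 at week 2. The mean of 26 proximal tubule genes lay between 9.22 and 9.24 in untreated and between 9.26 and 9.39 at week 2, and Umod, the defining transcript of the thick ascending limb, averaged 10.9 and 11.1, so kidney transcripts were present in both groups.

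The 1 nephron gene that fell was Cldn14, a claudin of the thick ascending limb that restrains calcium uptake. It had 5.56, 4.33 and 4.92 in untreated and 3.98, 3.74, 3.68, 3.73 and 4.29 at week 2 (2.07-fold lower, adjusted p = 0.0028). The highest week 2 array lay just below the lowest untreated one, and without untreated replicate 1 the difference was -0.74 (adjusted p = 0.064). With the beta-actin covariate it was -0.75 (adjusted p = 0.27).

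Of 22 clock genes 2 fell and none rose, where 0.398% of all genes fell and 1.27% rose. The median of the list was -0.02, and over the alternatives 0 to 3 members fell. Per2, a repressor of the clock loop, had 5.14, 4.74 and 5.46 in untreated and 3.63, 4.44, 3.89, 4.09 and 3.84 at week 2 (2.20-fold lower, adjusted p = 0.015). The other Per2 probe set differed by -0.57 (adjusted p = 0.18). Noct, a rhythmic phosphatase, had 7.21, 6.88 and 7.99 against 6.10, 6.25, 5.58, 6.95 and 5.45, where week 2 replicate 4 overlapped the untreated arrays. Arntl (BMAL1), which acts opposite to the Per genes, differed by 0.59 (adjusted p = 0.17), Per1 by -0.77 (0.25) and Dbp by 0.09. At week 3 Per2 averaged 4.43 and Noct 6.16, and neither passed against week 2 (limma, adjusted p = 0.98 and 0.997). The hour of kidney collection is not given in the sources used here, so a difference in hour and an effect of treatment cannot be told apart.

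Nr4a3, an orphan receptor of the immediate early class, had 7.55, 7.57 and 8.06 in untreated and 5.94, 6.26, 5.95, 7.82 and 6.27 at week 2. Week 2 replicate 4, the array with adrenal transcripts, lay inside the untreated range, and the other 4 arrays lay below it. Its remaining probe sets differed by -0.09 and 0.12. Of 25 immediate early factors it was the single one to fall. At week 3 Nr4a3 averaged 5.21, a change of -1.23 from week 2 that did not pass (limma, adjusted p = 0.29). Noct, Nr4a3 and Per2 each lost their calls with array weights, with the beta-actin covariate and without untreated replicate 3, where Per2 had an adjusted p of 0.35 with the covariate and 0.13 without that array.

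Zbtb16 and Apod, which are in none of the interferon lists, rose as well. Zbtb16 (PLZF), a transcription factor that glucocorticoids induce, had 3.45, 3.06 and 3.07 in untreated and 5.02, 6.16, 5.27, 5.48 and 4.44 at week 2 (4.23-fold, adjusted p = 0.0062). The groups did not overlap, but a second, non-passing probe set of Zbtb16 differed by -0.16, and the adjusted p was 0.066 with the beta-actin covariate. It was the single one of 15 glucocorticoid-regulated genes to rise, and none fell. Fkbp5 differed by 0.53 (adjusted p = 0.58), Pdk4 by 0.76 (0.13), Klf15 by -0.58 (0.24) and Serpina6 by -1.45 (0.10). Apod, a lipid carrier, had 3.54, 4.43 and 2.34 against 4.92, 4.93, 6.11, 5.53 and 5.53 (3.92-fold). Leaving out untreated replicate 3 (adjusted p = 0.075) or adding the covariate (0.12) ended that call. Mcm6, a subunit of the replication helicase, was the 1 of 29 cell cycle genes to rise (1.05, from 3.42 to 3.61 in untreated to between 4.40 and 4.71), a call that ended with the covariate (adjusted p = 0.20) and without untreated replicate 3 (0.11).

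**Figure D5:**
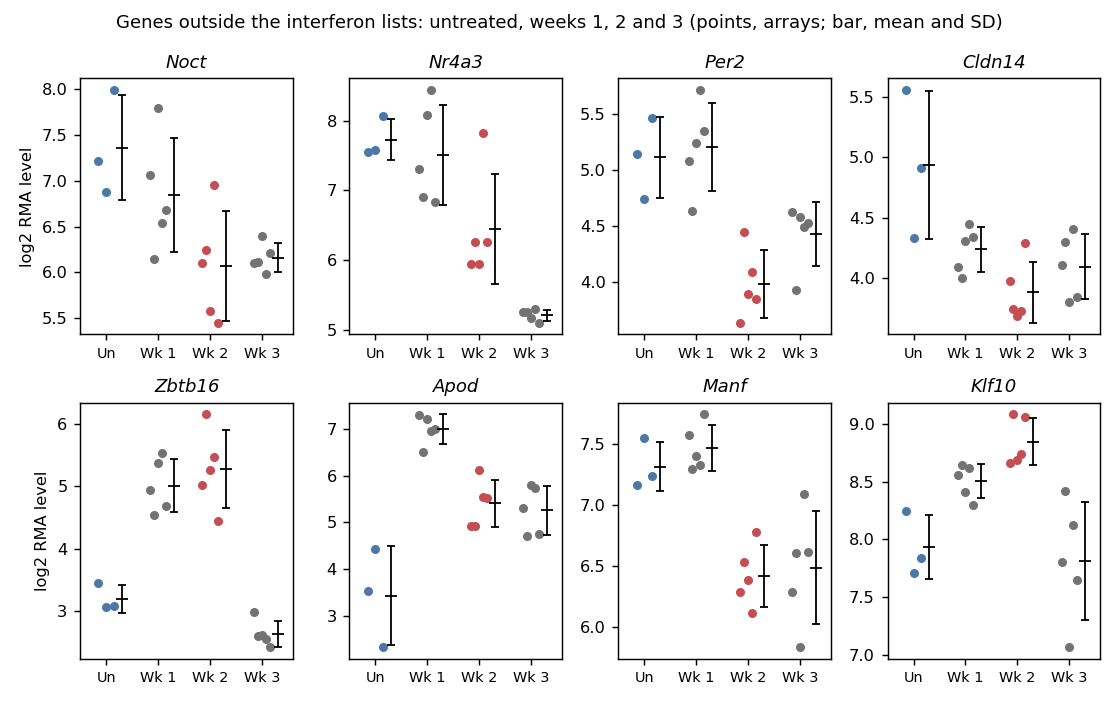
Log2 RMA levels of 8 genes in untreated, week 1, week 2 and week 3 kidneys (points, single arrays; bars, group mean and SD). Per2 is low at week 2 (3.63 to 4.44) and week 3 (3.92 to 4.63) but not at week 1. Zbtb16 is high at weeks 1 and 2 and low at week 3.

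Few probe sets separated week 2 from the neighbouring weeks. Against week 1, 4 probe sets were higher and 3 lower past 2-fold, which is 0.00888% and 0.00666% of those tested, and among genes 1 was higher (0.00585%) and 3 lower (0.0175%). The lower genes were Apod (-1.59, adjusted p = 0.038), Per2 (-1.23, 0.016) and Manf (-1.05, 0.026), a secreted factor of the endoplasmic reticulum stress response. The higher gene was the alpha globin Hba-a1 (2.83, 0.026), at 6.56 ± 0.504 at week 1 and 9.38 ± 0.292 at week 2 (SD, n = 5 each). The mean log2 level over 12 globin probe sets did not separate week 2 from untreated arrays (4.89 ± 0.128 against 4.63 ± 0.233, exact two-sided permutation test, p = 0.143, and 0.214 after adjustment over 3 measures). Without the 3 arrays with adrenal transcripts no probe set passed 2-fold in either direction against week 1.

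No gene of these 16 lists passed against week 1 or week 3. Of their 158 genes, 126 (79.7%) had a lower mean at week 2 than at week 1, as did 56.1% of all genes, with a median change of -0.20 against -0.02. The count was 11 of 11 in the OAS system, 6 of 6 immunity-related GTPases, 8 of 13 in the PARP family and 10 of 15 in the TRIM family. Ifit1 averaged 10.4 at week 1, 9.55 at week 2 and 9.72 at week 3, and Irf7 8.38, 7.11 and 7.40. These comparisons share the week 2 arrays with the comparison to untreated mice.

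Against week 3, no probe set rose and 5 fell past 2-fold (0.0111% of those tested), and 2 named genes were lower at week 3 (0.0117%). Zbtb16 went from 5.27 ± 0.628 at week 2 to 2.63 ± 0.209 at week 3 (n = 5 each), a change of -2.65 (SE 0.37, adjusted p = 0.0011), with no overlap between those arrays. Klf10, a TGF-beta-induced repressor, was 7.93 ± 0.281 in untreated, 8.85 ± 0.207 at week 2 and 7.81 ± 0.513 at week 3, a change of -1.04 (adjusted p = 0.012). No gene was higher at week 3 by limma, and with array weights 1 probe set was higher. Of 17097 genes, 894 had an unadjusted limma p under 0.05 in either direction between weeks 2 and 3. That is close to the share of 0.05 that chance alone would give. For week 2 against untreated the share was 15.5%.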

How the data were processed

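Kidney RNA was hybridized to Affymetrix HT-MG-430 PM arrays. The deposited table holds log2 values that the authors made with robust multi-array average (RMA) normalization, as their methods and processing notes (RMA, Partek) state, and no scanner files were used here. Of 45141 probe sets, 104 controls were left out. Gene names came from the platform annotation: 28898 probe sets had 1 symbol, 551 several and 15588 none, and the probe set with the highest mean stood for each gene. No detection calls were used, and precision is limited by the number of arrays.

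Groups followed the labels. limma 3.58.1 (R 4.3.3) was fitted with 7 group means over all 33 arrays (26 residual and 6.99 prior degrees of freedom), with Benjamini-Hochberg adjustment over 45037 probe sets. An adjusted p under 0.05 with a change over 2-fold was the limit for calls, as in the study. In simulated data made for this comparison, 50 of 45037 probe sets were changed per fold. The test recovered 34% of 1.5-fold, 80% of 2-fold and 100% of 4-fold and 8-fold changes, with 6 false calls. The simulated noise of a probe set had the same SD in every group. In the real arrays the median SD over genes was 0.212 in untreated and 0.166 at week 2, so these shares need not hold for them. Single array measures were compared by exact permutation tests in scipy 1.17.1. The members, 50 gene lists (655 of 750 genes measured), tests and alternatives were chosen with earlier results of these data known. Named genes are the 20 largest rises without overlap, every fall over 2-fold, up to 5 changed members of each list, clock, ligand, receptor, STAT and IRF genes, genes that the study's text names for kidney, the largest changes against weeks 1 and 3, and the 8 genes with the largest SD at week 2. Other members given beside them, such as Socs1, Herc6, Cxcl2, Cxcl10, Ccl28, Psmb8, Psme1, Lcn2, Fkbp5, Pdk4, Klf15, Serpina6, Cgas, Ms4a6c and the C1q genes, were picked after their values were seen. Alternatives were other scalings, filters, covariates, array weights, subsets and a replicate block. Promoter windows came from RefSeq (GRCm38.p6).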

Additional observations from a re-analysis of the deposited data

Results flagged for a closer look

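Among 141 values tested for an array apart from the other week 2 arrays (Dixon's test at 5 arrays, critical value 0.71, which chance passes in about 1 of 20 groups), 10 passed, and in each the array was week 2 replicate 4. The ratios of gap to range were 0.968 for Hsd3b1, 0.94 for Akr1cl, 0.919 for Chgb, 0.97 for Cyp11b1, 0.906 for Scg2, 0.897 for Cyp21a1, 0.927 for Mc2r, 0.802 for Star and 0.972 for the mean of the adrenal cortex list. The tenth was Nr4a3 at 0.826, which is not an adrenal marker of that list. Levels on that array were 10.04 for Hsd3b1, 9.61 for Akr1cl, 6.51 for Scg2, 10.1 for Cyp21a1, 5.26 for Mc2r and 7.82 for Nr4a3. The first 8 genes had been named for their large spread at week 2, so their ratios are a description.

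A tested difference from a neighbouring week was found for 6 named genes. Against week 1, week 2 differed by -1.23 for Per2, 2.83 for Hba-a1, -1.59 for Apod and -1.05 for Manf. From week 2 to week 3, Zbtb16 changed by -2.65 and Klf10 by -1.04.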

How the results depend on the processing

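Of 79 named genes that passed against untreated, 57 passed under each of the 19 alternatives run for them (18 where a dim-signal filter removed the gene), and none changed direction. The calls lost were 20 with the beta-actin covariate, 15 without untreated replicate 3, 10 with array weights and 8 with the 2 groups alone, and the cause was not tested. In place of the 167 rises and 8 falls past 2-fold, a 1.5-fold limit gave 336 and 108, and no fold limit 395 and 202. The 8 probe sets that fell became 3 with array weights, 4 with the beta-actin covariate and 5 without dim probe sets. Leaving out 1 array gave 147 to 213 rises and 5 to 36 falls, the extremes being untreated replicate 3 (147 and 5) and untreated replicate 2 (213 and 36). Against week 1, the 4 higher and 3 lower probe sets became 11 and 6 with array weights, 8 and 6 with the 2 groups alone, and 0 and 0 without the 3 arrays with adrenal transcripts (an alternative chosen after seeing the data). Without 1 week 2 array they were 0 to 1 and 0 to 3. Against week 3, 0 higher became 1 with array weights, 5 lower became 2 without dim probe sets, and leaving out 1 week 2 array gave 0 higher and 4 to 5 lower. A replicate block gave 164 rises and 10 falls. Replicate numbers did not pair the mice: same-numbered deviations correlated at -0.0234, -0.0607 and -0.045.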
